A study of Mus musculus with 6 samples.

Results

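Expression of 10 genes of the p53 pathway was measured in cardiomyocyte (CM) nuclei of mouse hearts that overexpressed (OE) GFP or 1 of 2 mutant forms of YAP. The genes were *Trp53*, which encodes p53, and 9 of its known targets: *Cdkn1a*, *Mdm2*, *Ccng1*, *Trp53inp1*, *Sesn1*, *Sesn2*, *Phlda3*, *Eda2r* and *Zmat3*. They were chosen by symbol, as the rows whose Ensembl IDs carry these names in the GENCODE M21 annotation, and are 10 of the 54532 genes in the table. All 10 passed the filter on low values in each of the 3 groups.

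Wildtype ICR mice received 1e+11 viral genomes of AAV9 at postnatal day 6 (P6) by subcutaneous injection, and 2 hearts per virus were collected at P9, 3 d later. All 3 viruses carried the cardiac troponin T (cTnT) promoter, which drives expression in CMs, in front of GFP (the control), YAP5SA or YAP6SA. YAP5SA carries serine-to-alanine changes at the sites that LATS kinases phosphorylate, and YAP6SA has the same changes plus a further one that disrupts binding to TEAD. Nuclei were enriched with an antibody to PCM1, a protein of the CM nuclear envelope, and poly-A nuclear RNA was sequenced, with 2 libraries per group, 1 in each of 2 batches. The labels do not say that a library is 1 heart, so the p-values measure only the spread between these libraries.

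p53 is a transcription factor that MDM2, itself a p53 target, binds and marks for degradation. Damage to DNA or other stress frees p53, which then binds response elements made of a pair of short half-sites and raises genes that stop the cell cycle, repair DNA, alter metabolism or start cell death. Much of this control acts on the protein, so the level of *Trp53* mRNA need not follow the activity of p53. The mRNAs of its targets are also set by other factors.

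The library totals ran from 14552847 to 19615627 gene counts. All 6 CM markers (*Myh6*, *Tnnt2*, *Actc1*, *Ttn*, *Ryr2* and *Pcm1*) were present in every library, with a summed level of 43455 to 58853 CPM (counts scaled to the library size with TMM factors) in the GFP and YAP6SA libraries and 38222 and 26594 CPM in the YAP5SA libraries of batches 1 and 2. Of these 6 markers, *Ryr2* fell in YAP5SA OE CMs (log2 fold change -0.81, FDR 0.0455), a call lost without GFP replicate 2, YAP5SA replicate 2 or either YAP6SA library, without the batch term and in a fit of the 4 libraries compared. The median log2 fold change of the 6 CM markers in YAP5SA OE CMs was -0.56, beside -0.0031 for all genes tested. The likelihood ratio test and limma-voom each called 3 of the 6 lower, beside 1565 and 1320 of all 13323 genes. The fit of the 4 libraries compared called 0 of the 6. Fibroblast markers summed to 695 to 1367 CPM, mural cell markers to 276 to 515, endothelial markers to 177 to 249, macrophage markers to 49.2 to 78.0 and erythroid markers to 24.8 to 64.0 over the 6 libraries, and none of the 34 markers was at 0 in any library. Among the 28 genes listed for other cell types, *Abcc9*, listed for mural cells, fell in YAP5SA OE CMs (log2 fold change -0.81, FDR 0.0287). This call was lost without GFP replicate 2 or YAP5SA replicate 2. *Abcc9* had 272 and 387 CPM in the GFP libraries, where the other genes listed for mural cells had 10.6 to 69.2 CPM. Whether its RNA came from mural cells or CMs was not tested. *Xist*, expressed in female cells, was at 0 to 0.407 CPM in the libraries of batch 1 and 578 to 640 CPM in batch 2. The Y-linked *Eif2s3y* was at 349 to 384 CPM in batch 1 and 159 to 229 CPM in batch 2. Each batch 2 library therefore held RNA of both sexes, and so of more than 1 animal. The labels do not say how many hearts went into a library. The batches, each of which holds all 3 groups, differed in sex. The part of these differences in the results below was not tested, and in RNA from many nuclei fewer cells of a type and less RNA per cell cannot be told apart.

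Promoter sequences of the genes that changed are given first, because p53 acts through its binding sites. RefSeq starts on GRCm38.p6 gave 10 windows for 8 of the 10 genes, with *Trp53inp1* and *Zmat3* not matched. Each window ran from 250 bases before to 50 bases after the start, and was searched on both strands for the p53 half-site (exact) and for the full p53 site, which is 2 abutting half-sites with up to 2 mismatches in 20 bases. Below are the 250 bases before the start, 5′ to 3′ on the strand of the gene, with matches to the half-site or the site in capitals. *Cdkn1a* is shown at the upstream of its starts, *Sesn1* at its inner start, and *Phlda3* as a gene whose window held no match.
Cdkn1a, chr17:29090729-29090978, plus strand: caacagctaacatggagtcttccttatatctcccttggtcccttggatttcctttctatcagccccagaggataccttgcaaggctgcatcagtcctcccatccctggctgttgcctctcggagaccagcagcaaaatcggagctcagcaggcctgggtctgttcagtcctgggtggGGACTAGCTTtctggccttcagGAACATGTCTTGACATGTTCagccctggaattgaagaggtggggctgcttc
Ccng1, chr11:40755287-40755536, minus strand: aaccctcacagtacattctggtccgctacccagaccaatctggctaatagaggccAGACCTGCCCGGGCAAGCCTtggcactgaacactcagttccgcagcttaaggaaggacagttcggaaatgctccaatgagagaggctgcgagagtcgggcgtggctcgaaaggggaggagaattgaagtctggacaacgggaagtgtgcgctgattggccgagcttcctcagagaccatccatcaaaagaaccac
Sesn1, chr10:41887189-41887438, plus strand: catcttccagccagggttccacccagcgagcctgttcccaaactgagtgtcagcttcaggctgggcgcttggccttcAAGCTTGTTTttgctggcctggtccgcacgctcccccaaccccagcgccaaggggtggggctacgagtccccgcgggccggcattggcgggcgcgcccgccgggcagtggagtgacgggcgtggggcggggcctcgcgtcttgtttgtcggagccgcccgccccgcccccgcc
Phlda3, chr1:135765835-135766084, plus strand: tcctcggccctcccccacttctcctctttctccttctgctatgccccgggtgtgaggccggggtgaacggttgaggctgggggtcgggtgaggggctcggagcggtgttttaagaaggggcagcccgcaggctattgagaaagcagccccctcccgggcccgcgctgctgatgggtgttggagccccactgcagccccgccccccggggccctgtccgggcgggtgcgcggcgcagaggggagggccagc

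In the *Cdkn1a* window, the full site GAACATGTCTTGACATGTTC (chr17:29090928-29090947) began 51 bases before the start with 1 mismatch, and a further half-site began 73 bases before it. In the *Ccng1* window, the full site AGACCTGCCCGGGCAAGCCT (chr11:40755462-40755481) began 195 bases before the start, also with 1 mismatch. A half-site alone began 173 bases before the inner start of *Sesn1*. For *Mdm2* and *Trp53*, each searched at its outermost start only, a half-site alone began 186 and 75 bases before that start. Over all 32851 windows of this length, 0.798% held the full site and 8.356% a half-site. The motif GGAATG, which TEAD factors bind, was in the windows of *Phlda3* and *Eda2r* and in 14.663% of all windows. The motif TTTGAA, found in cell cycle promoters bound by the DREAM complex, was in 17.893% of all windows and in none of those of the 8 genes. The other starts of *Cdkn1a* and *Sesn1* had neither p53 motif in their windows. The full site is built of half-sites, so both p53 motifs can mark the same bases. Binding was not measured, and sites farther from the start were not searched.

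Per length of exon, the genes formed 3 tiers in the GFP libraries. *Sesn1* had 41.0 and 51.7 RPKM (the scaled CPM divided by the exon length in kilobases) in batches 1 and 2 and *Mdm2* 40.9 and 50.1 RPKM, so these neighbours overlapped. *Ccng1* followed at 33.1 and 35.1 RPKM and *Trp53* at 20.2 and 25.3 RPKM, each apart from its neighbours. *Cdkn1a*, with 4.78 and 6.54 RPKM, overlapped *Phlda3*, with 5.90 and 5.24 RPKM. *Trp53inp1* at 3.52 and 3.63 RPKM lay within the range of *Sesn2*, which had 3.87 and 2.44 RPKM. *Zmat3* at 0.703 and 0.280 RPKM and *Eda2r* at 0.357 and 0.443 RPKM were the lowest and overlapped. In the YAP5SA libraries, *Mdm2* was first at 34.7 and 39.9 RPKM, *Sesn1* stood at 26.2 and 22.7 RPKM below *Trp53* at 23.7 and 31.0 RPKM with overlap, and *Phlda3* at 10.9 and 15.4 RPKM and *Cdkn1a* at 11.2 and 12.3 RPKM lay above all libraries of the lower tiers.

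In YAP5SA OE CMs, the 10 genes did not move one way. *Cdkn1a* and *Phlda3* rose and *Sesn1* and *Ccng1* fell against GFP, and the other 6 did not pass the threshold (edgeR's quasi-likelihood test with batch as a covariate, FDR under 0.05 over 13323 genes). Among all genes tested, 12.8% rose and 9.18% fell. The median log2 fold change of the 10 genes was 0.30, and that of all genes tested was -0.0031. Both YAP5SA libraries lay above both GFP libraries for 4 of the 10 genes and below them for 4, where 31.2% and 29.7% of all genes tested did so. *Trp53* and *Sesn2* overlapped.

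**Figure D1:**
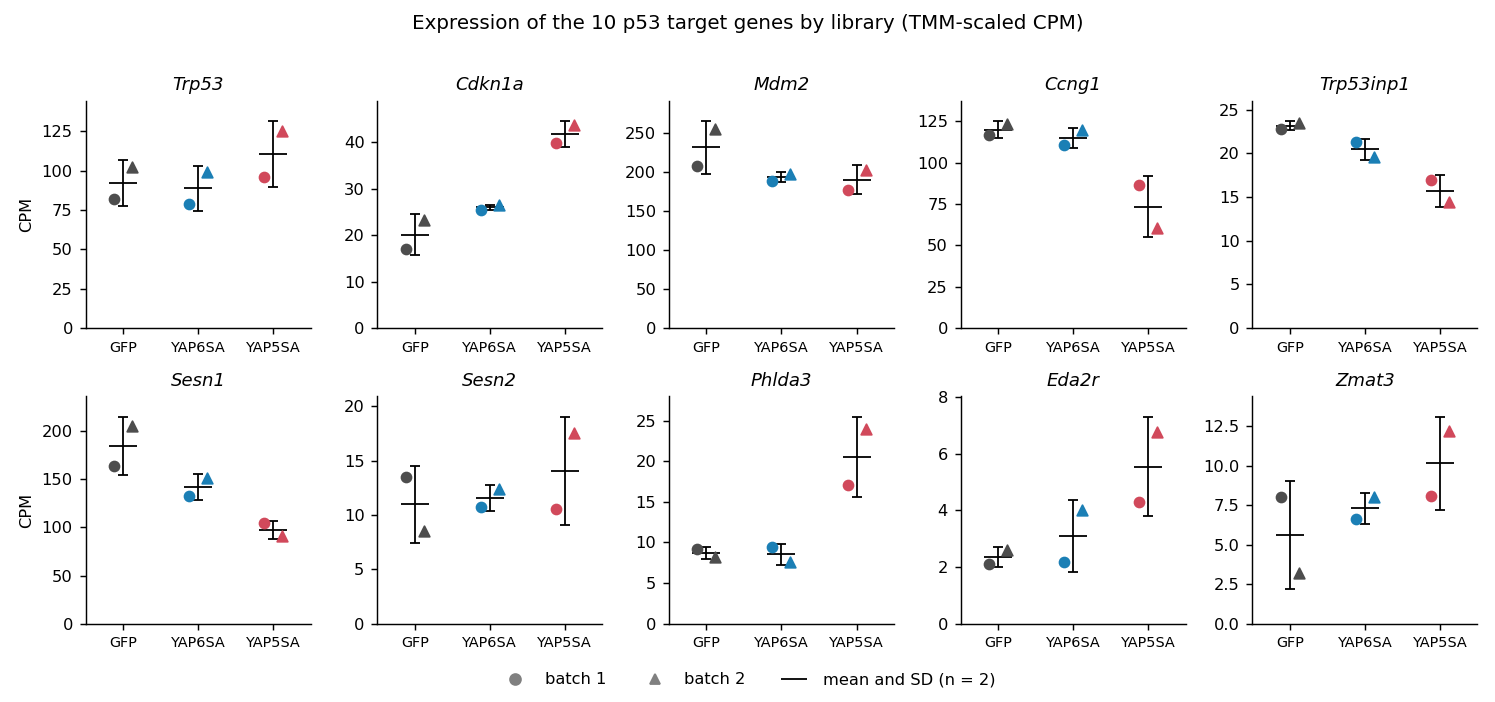
Level of each of the 10 genes in CPM (y axis, from 0) in the GFP, YAP6SA and YAP5SA libraries (x axis). Circles are batch 1, triangles batch 2, and lines and bars the mean and SD of 2 libraries. *Cdkn1a* and *Phlda3* are highest and *Sesn1* and *Ccng1* lowest in both YAP5SA libraries, whereas *Trp53* and *Sesn2* overlap between GFP and YAP5SA.

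*Trp53* (ENSMUSG00000059552, GRCm38 chromosome 11, 69580359 to 69591873, plus strand) was at 81.8 CPM (batch 1) and 102 CPM (batch 2) in GFP, at 78.9 and 98.9 CPM in YAP6SA, and at 96.1 and 125 CPM in YAP5SA, and batch 1 is given before batch 2 throughout. The batch 2 library was the higher in each group, and the groups overlapped. Its log2 fold change against GFP was 0.26 in YAP5SA OE CMs (SE 0.14, FDR 0.209) and -0.05 in YAP6SA OE CMs (FDR 0.969). Within batches the YAP5SA difference was 0.23 and 0.29 on the log2 scale. The genome also holds the pseudogene *Trp53-ps* on chromosome 17, and reads that map to several places are not in the counts.

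*Mdm2* (ENSMUSG00000020184, chromosome 10, 117688875 to 117710758, minus strand), the main negative regulator of p53, had 208 and 255 CPM in GFP, 189 and 197 CPM in YAP6SA, and 177 and 203 CPM in YAP5SA. Both GFP libraries were the highest of the 6. The log2 fold change was -0.28 in YAP5SA OE CMs (SE 0.15, FDR 0.203) and -0.25 in YAP6SA OE CMs (SE 0.15, FDR 0.874), and neither passed the threshold.

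*Cdkn1a* (ENSMUSG00000023067, chromosome 17, 29090976 to 29100727, plus strand) encodes p21, which inhibits cyclin-dependent kinases. Its level was 17.0 and 23.2 CPM in GFP, 25.5 and 26.4 CPM in YAP6SA, and 39.9 and 43.7 CPM in YAP5SA. The 3 groups did not overlap, with GFP lowest and YAP5SA highest. *Cdkn1a* rose 2.10-fold in YAP5SA OE CMs (log2 fold change 1.07, SE 0.19, FDR 0.00511), with within-batch differences of 1.23 and 0.91. The call held with each library left out in turn, with log2 fold changes of 0.90 to 1.25 and FDR up to 0.0496. Exons of AC167363.2, on the opposite strand, overlap 273 bases of *Cdkn1a* exons, and the libraries do not record strand; that gene had 18 counts over the 6 libraries and *Cdkn1a* 2999.

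*Phlda3* (ENSMUSG00000041801, chromosome 1, 135766119 to 135769136, plus strand), whose product competes with AKT for membrane lipids, had 9.20 and 8.16 CPM in GFP, 9.41 and 7.64 CPM in YAP6SA, and 17.0 and 24.0 CPM in YAP5SA. GFP and YAP6SA overlapped and both YAP5SA libraries lay above them. *Phlda3* rose 2.36-fold in YAP5SA OE CMs (log2 fold change 1.24, SE 0.27, FDR 0.0122). It was higher in both batches, by 0.88 and 1.54 on the log2 scale. The call was lost without GFP replicate 2 (1.09, FDR 0.139) and without YAP5SA replicate 2 (0.87, FDR 0.0756).

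*Sesn1* and *Sesn2* encode sestrins, which restrain mTORC1 signalling under stress. *Sesn1* (ENSMUSG00000038332, chromosome 10, 41809935 to 41908424, plus strand) had 163 and 206 CPM in GFP, 133 and 151 CPM in YAP6SA, and 104 and 90.6 CPM in YAP5SA. The 3 groups did not overlap, in the reverse order to *Cdkn1a*. *Sesn1* fell by 0.91 on the log2 scale in YAP5SA OE CMs, or 1.88-fold (SE 0.17, FDR 0.00538), with within-batch differences of -0.65 and -1.18. The call was lost without GFP replicate 2 (-0.74, FDR 0.0855). *Sesn2* (ENSMUSG00000028893, chromosome 4, 132492032 to 132510501, minus strand) had 13.5 and 8.49 CPM in GFP, 10.7 and 12.4 CPM in YAP6SA, and 10.5 and 17.5 CPM in YAP5SA. Its batches went opposite ways, with YAP5SA differences of -0.35 and 1.04, and its log2 fold change of 0.33 (SE 0.33, FDR 0.505) was no larger than its error.

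*Ccng1* (ENSMUSG00000020326, chromosome 11, 40748552 to 40755311, minus strand) encodes cyclin G1, which recruits the phosphatase PP2A to MDM2. It had 116 and 123 CPM in GFP, 111 and 119 CPM in YAP6SA, and 86.5 and 60.2 CPM in YAP5SA. GFP and YAP6SA overlapped and both YAP5SA libraries lay below them. *Ccng1* fell by 0.72 on the log2 scale in YAP5SA OE CMs, or 1.64-fold (SE 0.18, FDR 0.02), with within-batch differences of -0.43 and -1.03. Without YAP5SA replicate 2 the log2 fold change was -0.41 (FDR 0.11), and without GFP replicate 2 it was -0.58 (FDR 0.216).

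*Trp53inp1* (ENSMUSG00000028211, chromosome 4, 11156431 to 11174379, plus strand), a stress protein of autophagy and cell death, had 22.8 and 23.5 CPM in GFP, 21.3 and 19.6 CPM in YAP6SA, and 17.0 and 14.4 CPM in YAP5SA. The 3 groups did not overlap, but the log2 fold change of -0.57 in YAP5SA OE CMs did not pass the threshold (SE 0.21, FDR 0.0771). It did so without YAP5SA replicate 1 (-0.66, FDR 0.0453).

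*Eda2r* (ENSMUSG00000034457, chromosome X, 97333840 to 97377216, minus strand), a receptor of the TNF receptor family for ectodysplasin A2, had the lowest counts of the 10, with 40 and 40 in GFP, 43 and 66 in YAP6SA, and 65 and 121 in YAP5SA. These counts were 2.10 and 2.61 CPM, 2.19 and 4.0 CPM, and 4.31 and 6.78 CPM. Its log2 fold change of 1.20 in YAP5SA OE CMs (SE 0.40, FDR 0.0596) did not pass the threshold, at within-batch differences of 0.99 and 1.34. Both YAP5SA libraries lay above the other 4. *Eda2r* is X-linked, and its batch term was 0.62 (FDR 0.498). Its ligand gene *Eda* was at 3.36 to 3.98 CPM in the 6 libraries (log2 fold change 0.14 in YAP5SA OE CMs, FDR 0.823).

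*Zmat3* (ENSMUSG00000027663, chromosome 3, 32334792 to 32366014, minus strand), an RNA-binding zinc finger protein that acts in splicing, had 8.04 and 3.20 CPM in GFP, 6.61 and 8.0 CPM in YAP6SA, and 8.08 and 12.2 CPM in YAP5SA. The GFP libraries differed from each other more than the means of GFP and YAP6SA. The YAP5SA difference was 0.01 within batch 1 and 1.90 within batch 2, and the log2 fold change of 0.87 did not pass the threshold (SE 0.44, FDR 0.186). It did so without GFP replicate 1 (1.87, FDR 0.0193) and without YAP5SA replicate 1 (1.43, FDR 0.0194).

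In YAP6SA OE CMs, no change of the 10 genes passed the threshold, with FDR values of 0.838 to 0.995, and DESeq2 and limma-voom also called 0 of 10. Of all genes tested, 0.045% passed as higher and 0% as lower. At an unadjusted p under 0.05, 1 of the 10 genes differed from GFP, where 5.93% of all genes did. That gene was *Sesn1*, with a log2 fold change of -0.37 (SE 0.17, FDR 0.838). *Cdkn1a* followed with 0.38 (SE 0.19, FDR 0.842). The YAP6SA libraries lay apart from the GFP libraries for 4 of the 10 genes, namely *Cdkn1a* above and *Mdm2*, *Trp53inp1* and *Sesn1* below, where 34.3% of all genes did so. The median of the 10 was -0.04 and that of all genes 0.0018.

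The difference between the 2 YAP forms was tested directly. *Phlda3* (log2 fold change 1.26, SE 0.27, FDR 0.0148) and *Cdkn1a* (0.68, SE 0.19, FDR 0.0392) were higher in YAP5SA than in YAP6SA OE CMs, and *Ccng1* was lower (-0.66, SE 0.18, FDR 0.0365), where 9% of all genes tested were higher and 5.68% lower. *Sesn1* was -0.54 (FDR 0.0577), *Eda2r* 0.86 (FDR 0.173) and *Trp53* 0.31 (FDR 0.161), none past the threshold. For *Mdm2* the log2 difference between the YAP forms was -0.03 (SE 0.15, FDR 0.916). All 3 calls were lost without YAP6SA replicate 2 (*Phlda3* 1.03, *Cdkn1a* 0.57 and *Ccng1* -0.50, FDR 0.239 to 0.428). *Phlda3* and *Ccng1* also lost theirs without YAP5SA replicate 2 (0.90, FDR 0.0844, and -0.35, FDR 0.226), as did *Cdkn1a* and *Ccng1* without YAP6SA replicate 1 (0.81, FDR 0.122, and -0.83, FDR 0.0593). Without the batch term, *Phlda3* kept its call, and *Cdkn1a* (0.69, FDR 0.0722) and *Ccng1* (-0.65, FDR 0.0644) did not. This comparison and those with GFP share libraries, so the values are not independent.

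**Figure D2:**
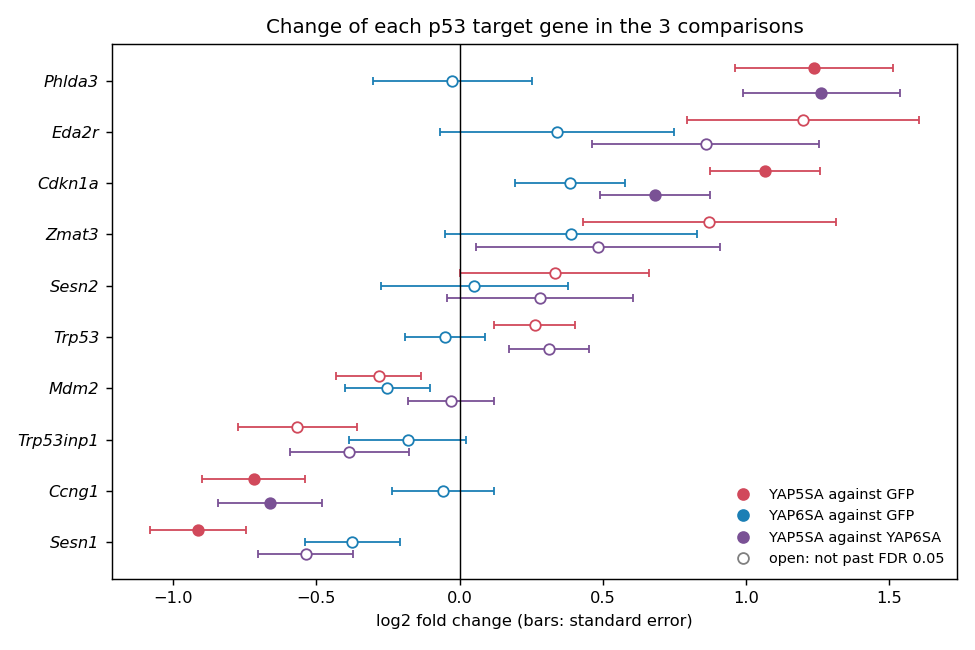
Log2 fold change of each of the 10 genes (x axis; bars are the standard error) in YAP5SA against GFP, YAP6SA against GFP and YAP5SA against YAP6SA. Filled points passed an FDR of 0.05. *Phlda3* and *Cdkn1a* are filled to the right and *Ccng1* to the left in both YAP5SA comparisons, *Sesn1* is filled only against GFP, and all YAP6SA points against GFP are open.

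Of 43 other genes that p53 is known to activate, 38 could be tested. This list and the lists below were chosen with earlier results of these data known. In YAP5SA OE CMs, 15 of the 38 rose and 5 fell against GFP, beside 12.8% and 9.18% of all genes, and their median log2 fold change was 0.35. The genes that rose include some of the spindle and G2 phase, among them *Ckap2* (1.92) and *Gtse1* (1.49). The cell cycle genes bound by the DREAM complex, given below, had a median of 1.86. Whether such genes rose through p53 or with the cell cycle was not tested. The counts rested on GFP replicate 2, without which 3 of the 38 were called, and on YAP5SA replicate 2, without which 10 were. *Fas*, *Apaf1* and *Ckap2* were called with each of the 6 libraries left out in turn, and the other 17 each lost the call without at least 1 library. Without GFP replicate 2, the calls over all genes also fell, from 1708 to 560 higher and from 1223 to 178 lower.

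Among 10 genes of apoptosis, 6 rose and 1 fell in YAP5SA OE CMs, beside 12.8% and 9.18% of all genes. Without GFP replicate 2 or YAP5SA replicate 2, 2 of the 10 were called. The death receptor *Fas* had 23.7 and 24.3 CPM in GFP, 44 and 53 CPM in YAP6SA, and 65.4 and 80.1 CPM in YAP5SA, in 3 groups that did not overlap. *Fas* rose in YAP5SA OE CMs (log2 fold change 1.59, SE 0.16, FDR 0.000374). *Apaf1*, which assembles the apoptosome, had 20.1 and 18.5 CPM in GFP, 22.2 and 18.5 CPM in YAP6SA, and 44.8 and 66.1 CPM in YAP5SA, and rose in YAP5SA OE CMs (1.51, SE 0.23, FDR 0.00215). The nuclease *Aen* (1.14, FDR 0.0228) and *Bax* (0.74, FDR 0.0276), which permeabilizes mitochondria, rose also, with *Bax* at 51.4 and 49.2 CPM in GFP and 65.8 and 105 CPM in YAP5SA. *Dram1*, a lysosomal protein of autophagy, fell (-1.26, SE 0.34, FDR 0.0247). The BH3-only gene *Bbc3* (PUMA) did not pass (0.52, FDR 0.227), and *Pmaip1* (NOXA), with 0 to 8 counts per library, was not tested. *Aen*, *Bax* and *Dram1* lost their calls without GFP replicate 2 and without YAP5SA replicate 2.

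Of 7 genes of cell cycle arrest and stress signalling, 4 rose in YAP5SA OE CMs, beside 12.8% of all genes. *Gdf15*, a secreted stress cytokine, had 3.47 and 1.96 CPM in GFP, 8.19 and 7.21 CPM in YAP6SA, and 8.02 and 11.5 CPM in YAP5SA (1.86, SE 0.39, FDR 0.0098). *Gtse1*, a microtubule protein of G2 phase, rose (1.49, FDR 0.00595), as did the polo-like kinases *Plk3* (1.21, FDR 0.0178) and *Plk2* (0.90, FDR 0.00639). All 4 lost their calls without GFP replicate 2, and *Plk3* also without GFP replicate 1 and without YAP5SA replicate 2. *Gadd45a*, which is raised by growth arrest and DNA damage, was at -0.13 (FDR 0.721) and the antiproliferative gene *Btg2* at 0.48 (FDR 0.265).

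The genes of DNA repair and of metabolism went both ways, where 12.8% of all genes rose and 9.18% fell. Of 5 repair genes, the translesion polymerase *Polk* rose (0.97, FDR 0.0145), and the nucleotide excision repair genes *Xpc* (-0.62, FDR 0.0268) and *Ercc5* (-0.55, FDR 0.0352) fell. *Xpc* had 49.7 and 51.4 CPM in GFP, 33.0 and 42.9 CPM in YAP6SA, and 30.5 and 35.4 CPM in YAP5SA. Of 8 metabolic genes, the epoxide hydrolase *Ephx1* rose (1.08, FDR 0.0186), and *Tigar*, which lowers fructose-2,6-bisphosphate (-0.90, FDR 0.00395), and *Pank1*, an enzyme of coenzyme A synthesis (-0.79, FDR 0.0112), fell. *Tigar* had 81.3 and 77.2 CPM in GFP, 75.0 and 63.7 CPM in YAP6SA, and 41.8 and 43.2 CPM in YAP5SA. None of these 6 genes was called without GFP replicate 2. *Xpc*, *Ercc5* and *Pank1* lost the call without GFP replicate 1 as well, *Xpc*, *Ercc5* and *Ephx1* without YAP5SA replicate 2, and *Ercc5* without either YAP6SA library. Of 8 targets of other roles, the spindle protein *Ckap2* (1.92, FDR 0.00172), *Rps27l*, a ribosomal protein paralog (1.12, FDR 0.0188), and the peptide transporter *Tap1* (1.00, FDR 0.0214) rose. *Rps27l* and *Tap1* were not called without GFP replicate 2, nor *Rps27l* without YAP5SA replicate 2.

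**Figure D3:**
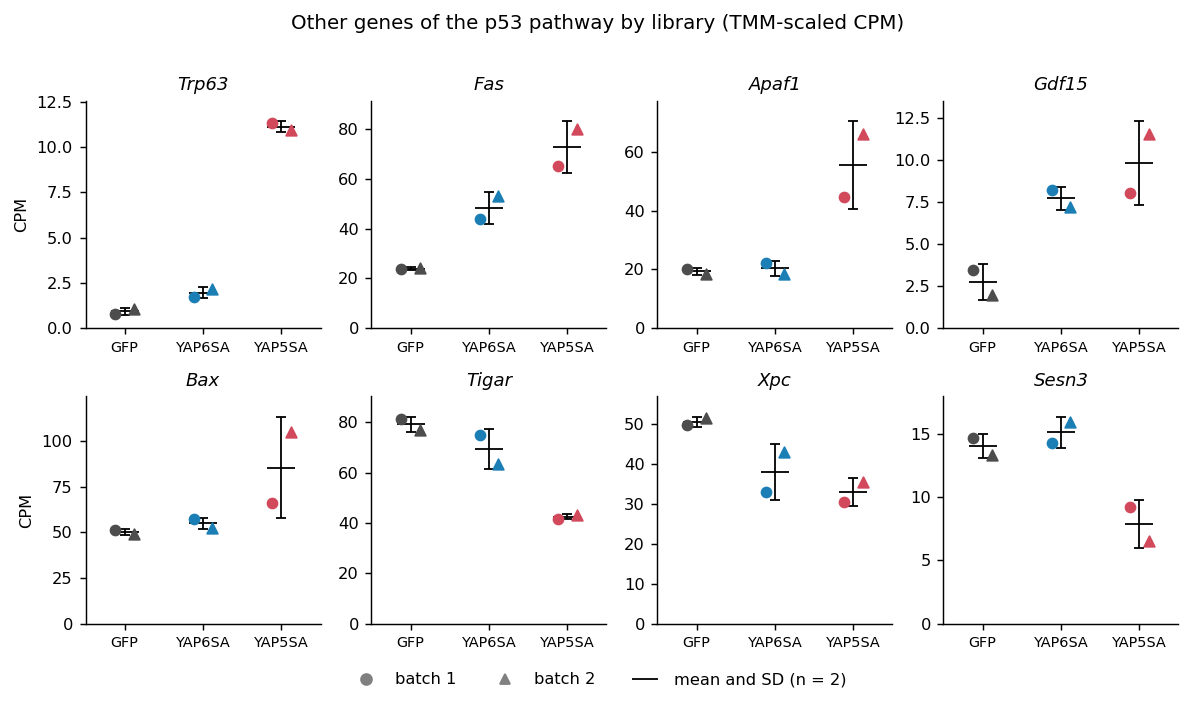
Level in CPM (y axis, from 0) of 8 other genes of the pathway in each library (circles, batch 1; triangles, batch 2; lines and bars, mean and SD of 2 libraries). *Trp63*, *Fas*, *Apaf1*, *Gdf15* and *Bax* are higher and *Tigar*, *Xpc* and *Sesn3* lower in both YAP5SA libraries than in both GFP libraries, and against both GFP libraries *Trp63*, *Fas*, *Gdf15* and *Bax* are also higher and *Tigar* and *Xpc* also lower in both YAP6SA libraries.

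In YAP6SA OE CMs, edgeR called 0 of the 38 genes, DESeq2 called 1 and limma-voom 0. At an unadjusted p under 0.05, 4 were higher and 2 lower, beside 3.86% and 2.07% of all genes. *Fas* was 2.01-fold higher than in GFP (log2 fold change 1.01, SE 0.16, FDR 0.141) and *Gdf15* 2.83-fold (1.5, SE 0.39, FDR 0.462). In a fit of the 4 GFP and YAP6SA libraries, in which 1.49% of all genes were called higher and 0.585% lower, *Fas* (1.02, FDR 0.000364), *Gdf15* (1.54, FDR 0.0167), *Btg2* (0.88, FDR 0.0288) and *Plk3* (0.82, FDR 0.0258) passed the threshold. *Fas*, *Gdf15* and *Plk3* also passed with either of the YAP5SA libraries left out of the fit of all groups. Between the YAP forms, 9 of the 38 genes were higher in YAP5SA and 2 lower, among them *Gtse1* (2.33, FDR 0.00131), *Ckap2* (2.04, FDR 0.00188), *Psrc1* (1.62, FDR 0.0166), *Apaf1* (1.44, FDR 0.00357) and *Fas* (0.58, FDR 0.035), while *Gdf15* was at 0.36 (FDR 0.549). Of all genes, 9% were higher and 5.68% lower. The 11 calls became 3 without YAP6SA replicate 2, 6 without YAP6SA replicate 1 or YAP5SA replicate 2, and 21 without YAP5SA replicate 1, as the calls over all genes went from 1956 to 396, 1229, 1147 and 4160 when YAP6SA replicate 2, YAP6SA replicate 1, YAP5SA replicate 2 and YAP5SA replicate 1 were left out.

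Of 18 genes that act on p53 itself, 4 rose in YAP5SA OE CMs, beside 12.8% of all genes, and 1 to 5 were called with each library left out in turn. They were the checkpoint kinases *Chek1* (2.15, SE 0.25, FDR 0.000677) and *Chek2* (1.36, SE 0.27, FDR 0.00766), and *Rpl11* (0.88, FDR 0.0152) and *Rpl5* (0.57, FDR 0.0459), ribosomal proteins that bind MDM2. *Chek1* had 7.20 and 7.05 CPM in GFP, 9.06 and 12.7 CPM in YAP6SA, and 26 and 39 CPM in YAP5SA. *Chek1* alone was called without GFP replicate 2; *Rpl11* also lost its call without GFP replicate 1 and without YAP5SA replicate 2, and *Rpl5*, with 1 library left out, was called only without YAP5SA replicate 1. *Mdm4*, which inhibits p53 together with MDM2, was at 717 and 895 CPM in GFP and 635 and 643 CPM in YAP5SA (-0.33, SE 0.17, FDR 0.207). The phosphatase *Ppm1d*, also a p53 target, was at 0.24 (FDR 0.413). *Cdkn2a*, which encodes the MDM2 inhibitor ARF, had 0 to 3 counts per library and was not tested.

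*Trp63* and *Trp73* encode the relatives of p53. *Trp63* had 15 and 16 counts in GFP, 34 and 36 in YAP6SA, and 171 and 195 in YAP5SA, or 0.789 and 1.04 CPM, 1.73 and 2.18 CPM, and 11.3 and 10.9 CPM. It rose in YAP5SA OE CMs (log2 fold change 3.61, SE 0.42, FDR 0.000691) and against YAP6SA (2.52, FDR 0.00305). *Trp63* passed the filter only through the YAP5SA group, in which it is high. *Trp73* had 0 to 4 counts per library. Of the ASPP cofactors, which bind p53, *Trp53bp2* rose (0.81, FDR 0.00483) and the inhibitory *Ppp1r13l* fell (-0.72, FDR 0.00993). Both lost the call without GFP replicate 2, and *Ppp1r13l* also without GFP replicate 1.

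Of 9 paralogs or partners of the 10 genes that could be tested, 1 rose and 1 fell in YAP5SA OE CMs, or 11.1% each, near the 12.8% and 9.18% of all genes. *Cdkn1b* (p27) was at -0.17 (FDR 0.557) and *Cdkn1c* (p57) at 0.44 (FDR 0.338) in YAP5SA OE CMs, beside 1.07 for *Cdkn1a*. *Ccng2* was at -0.26 (FDR 0.341), beside -0.72 for *Ccng1*. *Sesn3* fell, as *Sesn1* did, with 14.7 and 13.3 CPM in GFP, 14.2 and 15.9 CPM in YAP6SA, and 9.21 and 6.50 CPM in YAP5SA (-0.84, SE 0.26, FDR 0.045). With 1 library left out, *Sesn3* was called only without YAP5SA replicate 1. *Edar*, the receptor for the other isoform of ectodysplasin, rose (2.64, SE 0.53, FDR 0.00806) from 1.16 and 1.18 CPM in GFP to 6.69 and 7.68 CPM in YAP5SA, and passed the filter only through YAP5SA. Against YAP6SA, *Phlda1* was higher (0.89, FDR 0.015) and *Trp53inp2* lower (-0.61, FDR 0.0253) in YAP5SA, among 2 higher and 2 lower of the 9. Of all genes, 9% were higher and 5.68% lower in this comparison. *Phlda1* lost its call without YAP6SA replicate 2 or YAP5SA replicate 2, and *Trp53inp2* without either YAP6SA library or YAP5SA replicate 2. Differences between a member and its paralog were not tested.

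Of the 9 kinases, cyclins and PCNA that p21 binds, 3 rose in YAP5SA OE CMs, beside 12.8% of all genes, namely *Ccne1* (cyclin E1; 2.16, SE 0.38, FDR 0.00468), *Pcna* (1.55, SE 0.24, FDR 0.00231) and *Ccnd3* (cyclin D3; 0.67, FDR 0.0317). *Cdk2* had 101 and 97.8 CPM in GFP and 130 and 134 CPM in YAP5SA and did not pass (0.41, SE 0.15, FDR 0.0712). *Pcna* was called with each library left out, *Ccne1* was not without GFP replicate 2, and *Ccnd3* was not without either GFP library or YAP6SA replicate 2.

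Genes that p53 is known to repress through p21 and the DREAM complex, which holds cell cycle genes silent, rose together with *Cdkn1a*. In YAP5SA OE CMs, 13 of 14 rose, with a median log2 fold change of 1.86, beside 12.8% of all genes. The phosphatase *Cdc25c* (2.39, FDR 0.00161), the spindle checkpoint kinase *Bub1* (2.08, FDR 0.00077), cyclin B2, *Ccnb2* (2.05, FDR 0.00343), and the mitotic kinase *Cdk1* (2.05, FDR 0.00215) had the largest changes of the list. Without GFP replicate 2, 9 of the 14 were called. Against YAP6SA all 14 were higher in YAP5SA, beside 9% of all genes, among them *Birc5* (survivin; 1.93, FDR 0.00187) and *Kif23* (1.91, FDR 0.00228). This count became 9 without YAP6SA replicate 2, 11 without YAP6SA replicate 1, 12 without YAP5SA replicate 2 and 13 without the batch term. In YAP6SA OE CMs, edgeR, DESeq2 and limma-voom each called 0 of 14, 0 passed an unadjusted p of 0.05, and the median was 0.02. *Cdkn1a* in YAP6SA OE CMs was at 0.38 (FDR 0.842).

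**Figure D4:**
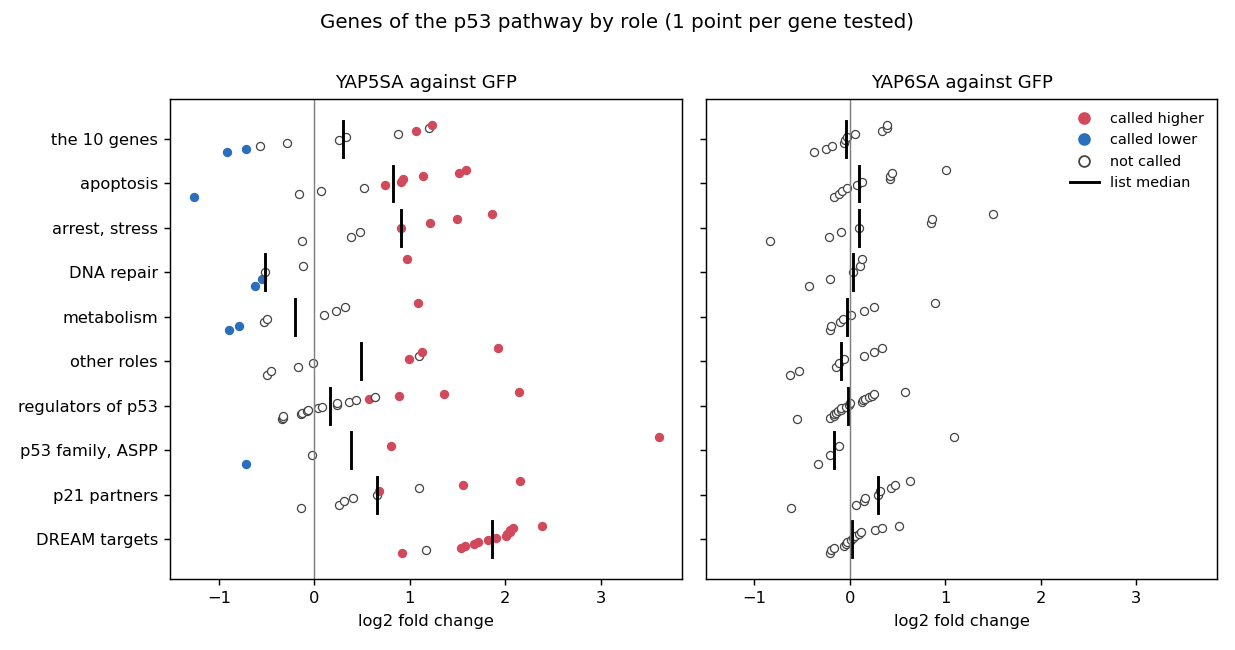
Log2 fold change (x axis) of each gene tested, by role in the p53 pathway (y axis), in YAP5SA (left) and YAP6SA (right) against GFP. Red points rose and blue points fell past an FDR of 0.05, open points did not pass, and black lines are list medians. For YAP5SA against GFP, the DREAM targets have 13 of 14 points red and the 10 genes 2 red and 2 blue, and no point is coloured for YAP6SA.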

How the data were processed

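Poly-A RNA of PCM1-bound CM nuclei was sequenced in 6 libraries, of GFP, YAP6SA and YAP5SA OE hearts, each with 2. Per the study's methods, STAR aligned the reads to mm10 (Ensembl release 94), and the authors deposited the unnormalized, unfiltered count of reads for every gene. The tool that counted the reads is not given in the sources used here. The libraries were non-directional. Of the reads, 9.43% to 9.84% were assigned to no feature, 5.79% to 6.31% were ambiguous and 2.90% to 4.19% mapped to several places. Such reads were not counted on genes. Names for 54495 of 54532 IDs, exon lengths and coordinates came from GENCODE M21 (GRCm38), and promoter sequences from RefSeq (GRCm38.p6).

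Genes with a median log2 CPM over 1 in at least 1 group were kept (13323). One edgeR 4.0.16 model (R 4.3.3, TMM, quasi-likelihood) with group and batch took all 6 libraries. The study's methods also state edgeR with a batch covariate, but not which libraries shared a fit or which edgeR test was used. At FDR under 0.05 the study reports more changed genes in YAP6SA OE CMs than the 6 called by this model. P-values were adjusted by the Benjamini-Hochberg method over all genes kept, and FDR is that value, with a threshold of 0.05. CPM and RPKM were scaled with the TMM factors. Within-batch log2 differences used a prior count of 2. The pipeline was tested on simulated data. The total gene counts, 14552847 to 19615627 per library, set the counting precision, and 2 libraries per group limit the rest.

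The labels give the replicate number as the batch, so libraries of one batch are paired. Their deviations from the group means correlated across genes with r = 0.368 (GFP and YAP6SA), 0.0985 (GFP and YAP5SA) and 0.175 (YAP6SA and YAP5SA). Replicates of a group differed by 27.7 to 43.6 times what counting noise gives, as chi-square over degrees of freedom, so none was a copy.

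Alternatives were DESeq2 1.42.0, limma-voom (limma 3.58.1), the likelihood ratio test of edgeR, RLE scaling, a fit without the batch term, a fit of the 4 libraries compared, no filter or a minimum of 10 counts in each library, and leaving out each library in turn. Where 1 library was left in a group, it was assumed to vary like the others. The 10 genes and the gene lists were chosen with earlier results of these data known. All 10 genes were named, as were 17 pathway genes picked for their roles (*Mdm4*, *Ppm1d*, *Cdkn2a*, *Bax*, *Bbc3*, *Pmaip1*, *Fas*, *Gadd45a*, *Btg2*, *Gdf15*, *Trp63*, *Trp73*, *Ccng2*, *Sesn3*, *Cdkn1b*, *Cdkn1c* and *Cdk2*) and, from each list, up to 4 genes with the largest change past the threshold in each comparison. *Eda* was named after its values were seen.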

Additional observations from a re-analysis of the deposited data

How the results depend on the processing

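With 2 libraries per group, single libraries decided many calls, and *Eda2r* had 40 to 121 counts per library. Under the 8 other fits of all or 4 libraries, no log2 fold change of the 10 genes in the 3 comparisons changed sign, and 7 of 240 values crossed the threshold: *Eda2r* in YAP5SA against GFP passed with no filter (FDR 0.0367) and with the likelihood ratio test (FDR 0.0137), *Sesn1* in YAP5SA against YAP6SA passed with no filter (FDR 0.0253), the likelihood ratio test (FDR 0.0346) and limma-voom (FDR 0.0455), and without the batch term *Cdkn1a* and *Ccng1* lost their calls in that comparison. The replicate block (the batch term) changed no other call of the 10 genes. Of the other genes named above, *Xpc*, *Ercc5*, *Rpl5*, *Sesn3* and *Ryr2* lost their calls against GFP in YAP5SA OE CMs without the batch term. Between the YAP forms, *Fas*, *Ephx1*, *Pank1*, *Polk*, *Phlda1*, *Trp53inp2*, *Sesn3*, *Ryr2* and *Abcc9* lost theirs without the batch term. Without it, 1 of the 10 genes in place of 3 and 7 of the 38 other targets in place of 11 were called between the YAP forms, and 1152 of all genes in place of 1956. In YAP6SA against GFP, the count of the 38 was 0, and became 3 with no filter, 2 with the likelihood ratio test, 1 with DESeq2 and 4 in the fit of the 4 libraries compared. Over all genes, the YAP6SA count was 6 and became 145 with no filter, 82 with the likelihood ratio test, 54 with DESeq2 and 276 with 4 libraries. The cause was not tested.

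With each library left out in turn, 1 to 6 of the 10 genes and 3 to 25 of the 38 were called in YAP5SA against GFP, 0 to 0 and 0 to 3 in YAP6SA against GFP, and 0 to 4 and 3 to 21 between the YAP forms. Over all genes, 738 to 4863, 6 to 213 and 396 to 4160 were called. Signs changed in 12 of 180 such values, none of them called. In YAP5SA against GFP, *Sesn2* ran from -0.21 to 0.93. In YAP6SA against GFP, *Sesn2* ran from -0.46 to 0.68, *Zmat3* from -0.36 to 1.4, *Phlda3* from -0.28 to 0.19 and *Ccng1* from -0.23 to 0.10. Between the YAP forms, *Sesn2* ran from -0.23 to 0.72, *Zmat3* from -0.11 to 0.97 and *Mdm2* from -0.12 to 0.063.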
